A study of Mus musculus with 42 samples.

Results

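The genes described here are 8 brakes of the cell cycle that were chosen by name: the growth arrest genes Gadd45a, Gadd45b and Gadd45g, the CIP/KIP inhibitors Cdkn1a and Cdkn1b, and the INK4 inhibitors Cdkn2a, Cdkn2c and Cdkn2d. All 8 were found among the 54353 genes counted in each bulk RNA-Seq library and among the 35237 genes of the joined single-cell matrix. Gadd45 proteins are small stress proteins that bind the cyclin B kinase Cdk1, the replication clamp Pcna and the kinase Map3k4, which lies upstream of p38 and JNK, and in T cells Gadd45b and Gadd45g are known for p38 signalling and IFN-γ production. Cdkn1a and Cdkn1b encode p21 and p27, which bind and restrain cyclin-CDK complexes. The INK4 proteins hold back the cyclin D kinases Cdk4 and Cdk6 alone, and differentiating lymphocytes are known to use Cdkn1b, Cdkn2c and Cdkn2d when they leave the cycle.

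The study followed mouse uterine tissue-resident NK cells (trNK), which divide and mature in the pregnant uterus as the lining is remodelled around the embryo. All bulk libraries and single cells were made from wild-type C57BL/6 females aged 8 to 12 weeks, and the labels name no transgene or deleted allele. There were 34 bulk libraries in 4 experiments, with 2 libraries in each group, and a single-cell matrix that pooled uterine NK cells (sorted as CD45+NK1.1+NKp46+) of virgin and gd8.5 mice. In the gestation experiment trNK cells (CD45+NK1.1+NKp46+CD49a+CXCR6-) were sorted from virgin mice and at gestational days 6.5 and 8.5 (gd6.5 and gd8.5). In the subset experiment gd8.5 trNK cells were sorted by CD55 and 4-1BB into low (trNK-V), intermediate (trNK-D) and high (trNK-T) cells. In the inhibitor culture, NK1.1+ lymphocytes were kept in vitro as controls, with 20 ng/mL IL-21, or with IL-21 plus 1 µM of the STAT3 inhibitor Stattic (iSTAT3), and were collected after 3 days. In the time course, cells were cultured with or without 20 ng/mL IL-21 and collected at 0, 6, 24 and 72 h. Per the study's results both cultures started from trNK-V cells of gd6.5 mice, while its methods name trNK of virgin or gd6.5 mice. The methods put IL-15 in the medium of every group, so the culture controls were not free of cytokine. The IL-15 dose is 10 ng/mL in the sample labels and 15 ng/mL in the treatment notes of the time course. The Stattic dose is that of the labels, and the study's methods print it in mM rather than µM.

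The libraries held 16422380 to 22956216 counted reads in the gestation experiment, 11862089 to 20786471 in the subsets, 12189886 to 29537298 in the inhibitor culture and 28541369 to 66468883 in the time course. Summed over 5 trNK markers (Ncr1, Klrb1c, Eomes, Itga1 and Tbx21), every library held between 243 and 1583 RPKM, the usual read density that is scaled to the exonic length of a gene and to the reads counted in its library. Virgin replicate 1 stood apart, with 1118 RPKM summed over 9 markers of terminal trNK cells against 16931 in virgin replicate 2. It was counted over 55573 listed genes against 54446 in every other library, with 14879 genes detected against 16371 in virgin replicate 2. The part of this in the gestation differences was not tested. Haemoglobin and other erythroid markers summed to 224 RPKM in virgin replicate 2 and 844 in gd8.5 replicate 2, and to at most 12.8 in all other libraries. Plasma cell markers reached 1833 RPKM in trNK-D replicate 2 and at most 145 elsewhere. The labels do not say that the 2 libraries of a group came from separate animals or cultures, so p-values measure the spread between these libraries, which may be technical. Statements that groups did not overlap are descriptions. With 2 libraries in each group, genes without a difference often do not overlap either, and the share over all genes was not counted. In bulk RNA, a lower share of a cell type and less RNA per cell cannot be told apart.

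The promoters of Gadd45g, Gadd45b and Cdkn1a are shown because these 3 genes gave the largest differences of the tested members between culture groups. The windows hold the 250 bases before a RefSeq start site on the GRCm38.p6 (mm10) plus strand, with capitals marking the TATA box (TATAAA), the CCAAT box (CCAAT) and the GC box (GGGCGG) on either strand.
Gadd45g, chr13:51846425-51846674: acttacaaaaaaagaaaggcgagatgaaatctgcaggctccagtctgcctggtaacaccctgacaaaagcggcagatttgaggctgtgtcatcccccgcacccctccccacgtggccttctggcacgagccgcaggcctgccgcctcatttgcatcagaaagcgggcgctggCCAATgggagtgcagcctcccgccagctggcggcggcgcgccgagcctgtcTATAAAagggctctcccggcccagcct
Gadd45b, chr10:80929841-80930090: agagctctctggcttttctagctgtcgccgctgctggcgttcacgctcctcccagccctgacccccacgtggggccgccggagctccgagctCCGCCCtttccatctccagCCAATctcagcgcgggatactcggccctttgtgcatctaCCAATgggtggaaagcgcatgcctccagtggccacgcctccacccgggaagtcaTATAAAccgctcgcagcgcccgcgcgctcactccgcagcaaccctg
Cdkn1a, chr17:29093519-29093768: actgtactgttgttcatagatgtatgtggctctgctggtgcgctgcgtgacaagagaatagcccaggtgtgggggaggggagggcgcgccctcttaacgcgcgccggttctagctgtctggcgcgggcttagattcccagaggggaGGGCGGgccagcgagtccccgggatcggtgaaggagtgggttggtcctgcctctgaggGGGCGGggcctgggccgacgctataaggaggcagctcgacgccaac
The first of these 3 windows ends just upstream of Gadd45g, and the Gadd45b window ends at the RefSeq start, a few bases inside the gene as the count tables' annotation draws it. The Cdkn1a window lies inside the gene, before the start of a shorter transcript. Of the 11 windows of the 8 genes, only those of Gadd45b and Gadd45g held the TATA box, which 12.4% of 32851 mouse promoter windows held. The STAT pattern TTCNNNGAA was in none of the 11 windows and in 7.02% of all windows, and the forkhead pattern TGTTTAC was likewise in none of the 11 and in 3.17% of all. In a wider search of 2000 bases to each side of the annotated start, chosen after the first search, the STAT pattern was found near 7 of the 8 genes and near 71.0% of the 5658 genes tested in any bulk experiment. Gadd45g had none, and Cdkn1a had 3, the nearest 298 bases upstream of the first start, with the pattern in capitals.
Cdkn1a, chr17:29090664-29090692: ccctgtccttTTCTGGGAAgtggtgattt

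Gadd45g had the highest levels of the 8 genes, with 6.09 to 780 RPKM over the 34 libraries and a median of 97.7. It is a gene of chromosome 13 (ENSMUSG00000021453, chr13:51846678-51848468, plus strand). Cdkn2d, which encodes p19 of the INK4 family (ENSMUSG00000096472, chr9:21288410-21291407, minus strand), followed with a median of 60.2 RPKM and a range of 18.8 to 222. Cdkn2c, which encodes p18 (ENSMUSG00000028551, chr4:109660876-109667189, minus strand), had a median of 24.8 RPKM and the narrowest range of the 5 genes tested, 11.6 to 60.2. Cdkn1a (ENSMUSG00000023067, chr17:29090976-29100727, plus strand) ranged from 0 to 227 RPKM with a median of 8.70. It shares 273 exonic bases with the antisense gene AC167363.2, which held at most 67 reads in a library, so its lowest counts are uncertain. Gadd45b (ENSMUSG00000015312, chr10:80930073-80932204, plus strand) ranged from 0.485 to 81.6 RPKM with a median of 6.13.

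The other 3 genes stayed under 10 RPKM in every library and so entered no main test. Cdkn1b (ENSMUSG00000003031, chr6:134920401-134925513, plus strand) held 0.646 to 8.68 RPKM, with a median of 2.26. Gadd45a (ENSMUSG00000036390, chr6:67035096-67037457, minus strand) was at 0 in 11 of 34 libraries and reached 6.99 RPKM. Its values are uncertain, since it shares 337 exonic bases with the antisense gene E230016M11Rik and strand was not stated to be used. Cdkn2a (ENSMUSG00000044303, chr4:89274471-89294653, minus strand) was at 0 in 22 of 34 libraries and never passed 0.867 RPKM, or 20 reads. Its single count covers the transcripts of both p16 and the alternative reading frame protein.

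**Figure D1:**
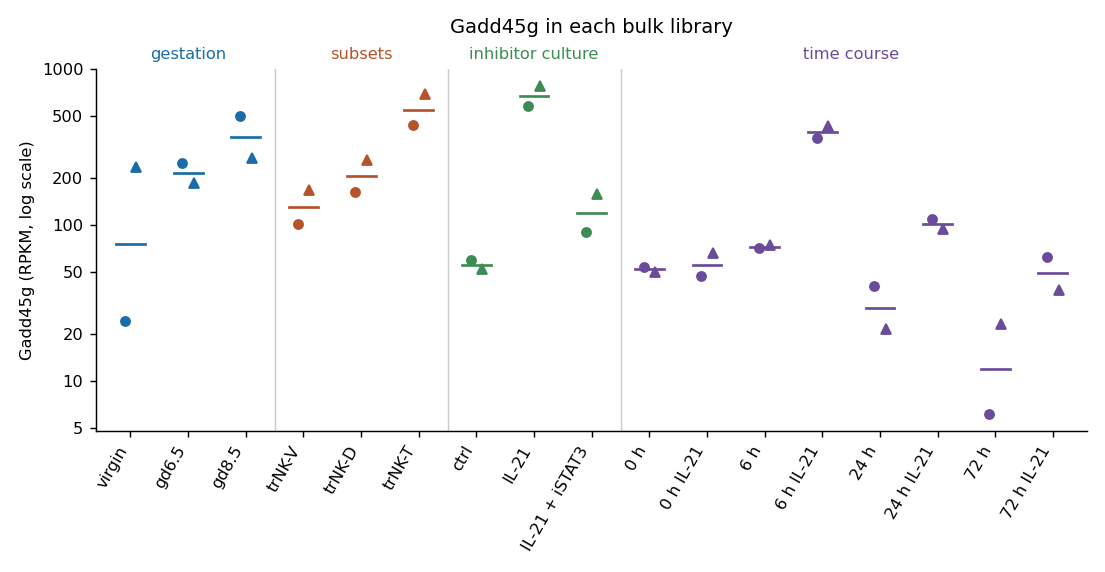
Gadd45g in the 34 bulk libraries, as RPKM on a log axis, by group within each experiment. Circles are replicate 1, triangles replicate 2, and bars the mean of the logs. Virgin replicate 1 (24.1 RPKM) sits far under virgin replicate 2 (237), and the 2 IL-21 libraries of the inhibitor culture (578 and 780) are the highest of their experiment.

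During gestation the question was how trNK cells change from the virgin uterus to gd8.5. None of the 4 genes tested passed in any of the 3 contrasts, where a gene passed with an adjusted p under 0.05 and more than a 2-fold change in edgeR's quasi-likelihood test. Virgin trNK libraries held 24.1 and 237 RPKM of Gadd45g, the gd6.5 libraries 249 and 187, and the gd8.5 libraries 503 and 271. The gd8.5 values lay above all others, but the virgin libraries differed from each other by more than the days did. The gd8.5 to virgin difference was 1.51 on the log2 scale (SE 0.91, edgeR, adjusted p = 0.482), and that of gd6.5 to virgin was 0.66 (SE 0.89, adjusted p = 0.638). Without virgin replicate 2 these became 3.99 (adjusted p = 0.00234) and 3.16 (adjusted p = 0.00257), so these calls rest on which virgin library is used.

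For Gadd45b the virgin libraries held 14.4 and 75.8 RPKM, the gd6.5 libraries 9.20 and 17.8, and the gd8.5 libraries 81.6 and 78.7. The gene met the RPKM filter through the virgin and gd8.5 groups and not through gd6.5, where it was low, so its gd6.5 contrasts are a description. All gd8.5 values lay above all gd6.5 values, with a difference of 2.60 on the log2 scale (SE 0.75, edgeR, adjusted p = 0.123). Without virgin replicate 1 the gd6.5 to virgin difference passed at -2.56 (adjusted p = 0.0117), and without virgin replicate 2 the gd8.5 to virgin difference passed at 2.47 (adjusted p = 0.00823). Cdkn2c, at 19.5 and 14.2, then 14.4 and 15.2, then 20.4 and 26.5 RPKM, differed between gd8.5 and gd6.5 by 0.69 (SE 0.26, adjusted p = 0.178). Cdkn2d ran from 39.5 to 85.8 RPKM in virgin libraries and from 40.3 to 51.5 over both pregnancy days. Among all 4504 genes tested, 6.17% passed between gd6.5 and virgin, 0.422% between gd8.5 and virgin and 0% between gd8.5 and gd6.5. At an unadjusted p under 0.05 edgeR gave 1, 0 and 2 of the 4 genes in these contrasts, beside 1474, 638 and 1071 of all 4504. DESeq2 called 1, 0 and 1 of the 4, beside 462, 164 and 221 genes. None of the 4 was called by limma, beside 357, 25 and 0 genes.

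Cdkn1a was not tested here, with 8.25 and 23.7 RPKM in the virgin, 14.9 and 5.75 in the gd6.5 and 9.57 and 17.4 in the gd8.5 libraries, groups that all overlapped. Cdkn1b read 3.98 and 2.16, then 1.34 and 2.42, then 2.65 and 1.82 RPKM, again with overlapping groups. Over the same contrasts, 6 of 16 tested genes of an 18-gene cell division list rose at gd6.5 against virgin, against 6.17% of all genes, among them Mcm5 by 1.71 and Mcm2 by 1.62, which encode subunits of the replicative helicase and met the RPKM filter in all 3 groups. Bub1, Ccnb1, Cdk1, Plk1, Top2a, Tpx2 and Ube2c entered only through the pregnant groups and not through virgin, so the filter favoured the count of rises. The antiproliferative gene Btg1 fell by 1.47 (SE 0.31, adjusted p = 0.04).

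Between the gd8.5 subsets, Gadd45g was higher in trNK-T than in trNK-V and the INK4 genes Cdkn2c and Cdkn2d were lower. These 3 of 5 tested members passed, against 21.2% of 4683 genes, and each of the 3 met the RPKM filter in all 3 groups. Gadd45g read 101 and 167 RPKM in trNK-V, 164 and 262 in trNK-D, and 439 and 692 in trNK-T. Every trNK-T library lay above every other, and the trNK-T to trNK-V difference was 2.07 on the log2 scale (SE 0.37, edgeR, adjusted p = 0.0093), 4.21-fold higher. Without trNK-T replicate 2 it was 1.70 (adjusted p = 0.0591) and no longer passed. Against trNK-D the difference was 1.40 (SE 0.36, adjusted p = 0.0943).

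Cdkn2d read 73.7 and 88.9 RPKM in trNK-V, 49.3 and 47.4 in trNK-D and 31.9 and 38.0 in trNK-T, with no overlap between any of the groups. It was 2.32-fold lower in trNK-T than in trNK-V (log2 difference -1.22, SE 0.20, edgeR, adjusted p = 0.0070), and this held on leaving out each library in turn. The step from trNK-V to trNK-D did not pass, at -0.74 (SE 0.19, adjusted p = 0.140). Cdkn2c read 24.3 and 26.5 RPKM in trNK-V, 17.7 and 25.1 in trNK-D, and 12.5 and 11.6 in trNK-T. The trNK-T to trNK-V difference was -1.07 (SE 0.26, adjusted p = 0.0226), 2.10-fold lower, but it stood close to the threshold: without any single one of the 4 libraries compared the adjusted p was between 0.0592 and 0.126. It was also lost under the looser count filter (-0.89, adjusted p = 0.0900) and with no filter (-0.90), where the change was under 2-fold.

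Gadd45b had its higher values in trNK-V, with 18.9 and 64.7 RPKM in trNK-V, 9.84 and 10.3 in trNK-D, and 15.9 and 4.03 in trNK-T. Both trNK-V libraries lay above all others. The gene met the RPKM filter only through trNK-V, where it was high, so its difference of -2.06 between trNK-T and trNK-V (SE 0.77) is a description. With all libraries it missed the test in edgeR with the RPKM filter and passed in DESeq2 and in edgeR with no filter, and it ran from -3.38 without trNK-T replicate 1, where it passed, to -0.85 without trNK-V replicate 2. Cdkn1a read 5.78 and 10.9, 10.4 and 9.15, and 13.7 and 12.2 RPKM from trNK-V to trNK-T, a difference of 0.63 (SE 0.35) that is likewise a description, since Cdkn1a met the filter only through trNK-T. Cdkn1b, below the RPKM filter, read 3.52 and 4.69, 3.69 and 3.06, and 2.68 and 1.43 RPKM. When it was admitted by a looser count filter, its trNK-T to trNK-V difference was -0.82 (SE 0.45, adjusted p = 0.295). No tested member passed between trNK-D and trNK-V, where 0.32% of genes did, or between trNK-T and trNK-D, where 1.75% did. At an unadjusted p under 0.05 edgeR gave 2 and 3 of the 5 members in these contrasts, beside 939 and 1072 of all 4683 genes. DESeq2 called 0 and 1 of the 5, beside 187 and 326 genes, and limma 0 and 0, beside 32 and 61.

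The subsets also differed in markers of other cells. Summed over 6 macrophage markers, the libraries held 23.7 and 277 RPKM in trNK-V, 230 and 316 in trNK-D, and 3.98 and 5.16 in trNK-T. The library of trNK-V with more macrophage signal, replicate 2, was also the higher of its group for Gadd45b, Gadd45g, Cdkn1a, Cdkn1b, Cdkn2c and Cdkn2d. Both trNK-D libraries held macrophage markers at that level with Gadd45b near 10 RPKM. The part of these cells in the differences was not tested.

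**Figure D2:**
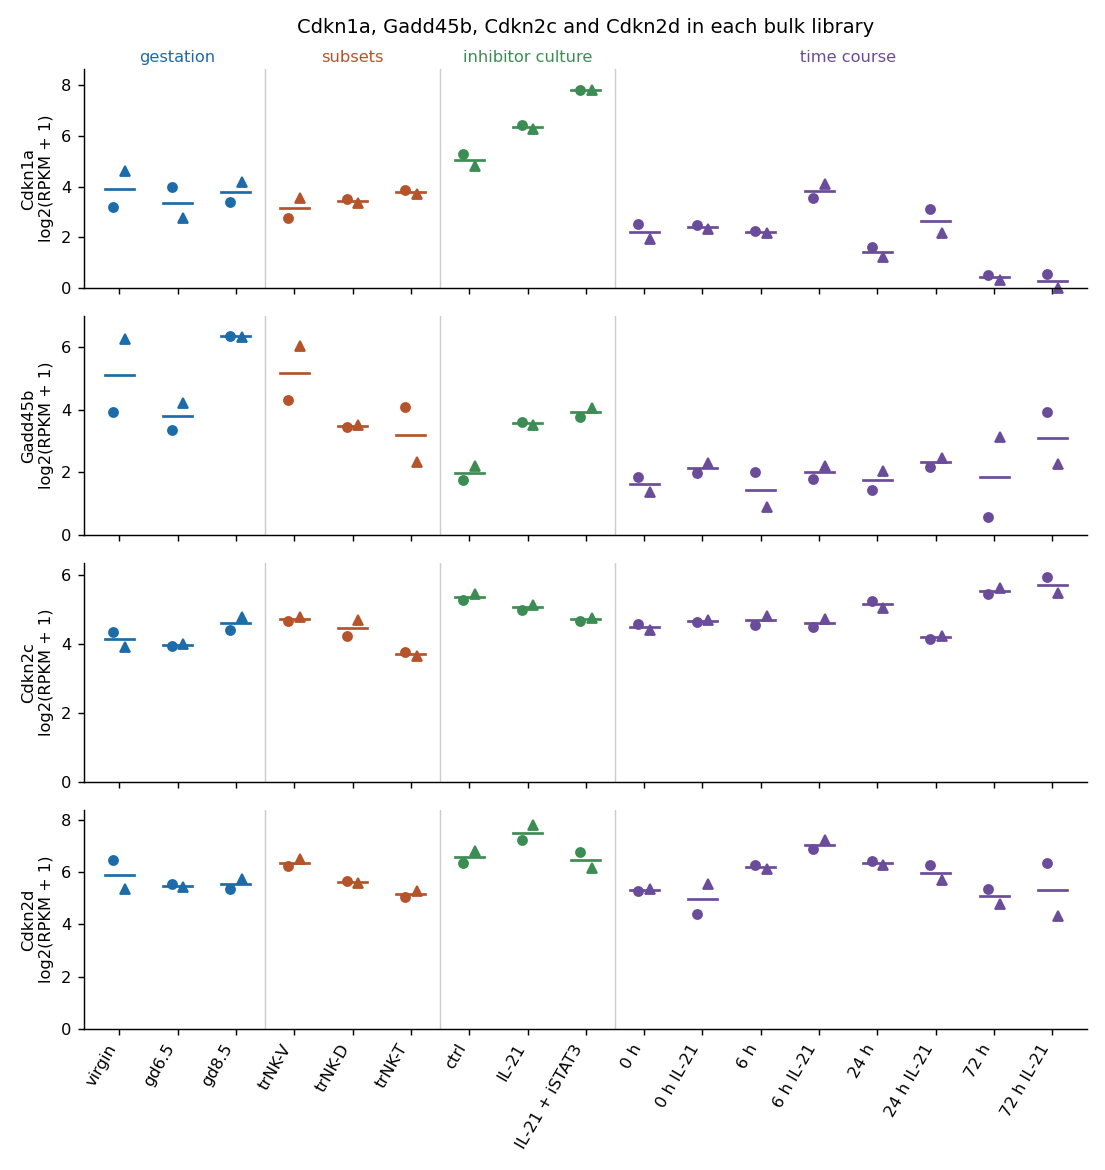
Cdkn1a, Gadd45b, Cdkn2c and Cdkn2d in the 34 bulk libraries, as log2(RPKM + 1), by group within each experiment. Circles are replicate 1, triangles replicate 2, and bars the mean of the log values. Cdkn1a is highest with IL-21 and iSTAT3 (223 and 227 RPKM), and Cdkn2d steps down from trNK-V (73.7 and 88.9) to trNK-T (31.9 and 38.0).

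The cyclins and kinases that these inhibitors bind were counted from fixed lists. All counts in trNK-T against trNK-V stand beside 21.2% of all genes passing. Of 4 tested genes among the D cyclins and their kinases 3 passed. Ccnd2 fell by 1.66 (SE 0.35, edgeR, adjusted p = 0.015) and Ccnd3 fell by 1.39 (SE 0.18, adjusted p = 0.0043). Cdk6, from 5.29 and 5.98 RPKM in trNK-V to 13.3 and 12.6 in trNK-T, met the RPKM filter only through trNK-T, where it was high, so its call is no support. The same was true of Ccne1, the cyclin E that drives S phase entry, the only one of 5 tested E, A and B cyclins and kinases to pass. Of the cell division list, 2 of 14 tested genes passed, Aurkb and Tyms, both admitted through trNK-D and trNK-T and not through trNK-V. The list median was 1.23 against -0.01 over all genes, and Cdk1, Plk1 and Top2a entered it only through trNK-T, so both values were favoured by the filter. In a list of FoxO targets and quiescence genes, 2 of 3 tested genes fell, Btg1 by 2.59 and Tob1, both antiproliferative genes, of which Tob1 met the filter only through trNK-V, where it is high. Of 8 tested p53 pathway genes 3 fell and none rose, namely Btg2 (-1.61), which met the filter in all 3 groups, Sesn1, admitted through trNK-V and trNK-D, and Trp53inp1, admitted only through trNK-V, so the filter favoured the count.

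In the inhibitor culture, IL-21 raised Gadd45g and the STAT3 inhibitor lowered it again, while Cdkn1a rose with the inhibitor. Gadd45g read 59.3 and 52.3 RPKM in control cells, 578 and 780 with IL-21, and 90.7 and 158 with IL-21 and iSTAT3, and no groups overlapped. IL-21 raised it 13.8-fold (log2 difference 3.78, SE 0.39, edgeR, adjusted p = 0.0136), the only one of 5 tested members to pass, against 0.289% of 4158 genes. Leaving out control replicate 1 gave 3.96 (adjusted p = 0.142) and control replicate 2 gave 3.75 (adjusted p = 0.0900), so the size held and the call did not. Adding iSTAT3 to IL-21 gave a difference of -2.34 (SE 0.37, adjusted p = 0.0220), 5.06-fold lower. Without any one of the 4 libraries compared the adjusted p was between 0.0773 and 0.120, and the sign was kept. Against control, the cells with IL-21 and iSTAT3 were still higher by 1.45 (SE 0.36), which did not pass (adjusted p = 0.0650).

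Cdkn1a read 38.6 and 27.4 RPKM in control cells, 86.4 and 75.8 with IL-21, and 223 and 227 with IL-21 and iSTAT3. No groups overlapped. With iSTAT3 it was 8.33-fold higher than in control cells (log2 difference 3.06, SE 0.32, edgeR, adjusted p = 0.0046), a call kept on leaving out each library. It was 2.97-fold higher than with IL-21 alone (1.57, SE 0.31, adjusted p = 0.0441), with adjusted p of 0.153 to 0.199 when any one of the 4 libraries was left out. IL-21 alone against control gave 1.49 (SE 0.31, adjusted p = 0.103).

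Gadd45b read 2.36 and 3.59 RPKM in control cells, 11.3 and 10.5 with IL-21, and 12.6 and 15.8 with IL-21 and iSTAT3, with no overlap between groups. The difference of iSTAT3 to control was 2.54 (SE 0.53, edgeR, adjusted p = 0.0371), 5.81-fold higher, with adjusted p of 0.0787 to 0.312 when any one of the 4 libraries was left out. IL-21 alone gave 2.06 (SE 0.52, adjusted p = 0.168). Gadd45b met the RPKM filter through both IL-21 groups and not through control, where it is low. Its call is therefore no support. In all, 2 of 5 tested members passed between iSTAT3 with IL-21 and IL-21 alone, where 2.96% of all genes did, and 2 of 5, Gadd45b among them, between iSTAT3 with IL-21 and control, where 4.74% did. Gadd45g and Cdkn1a, which both stood higher with IL-21 than in control, thus differed in direction when the inhibitor was added.

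The INK4 genes moved less in this culture and none passed. Cdkn2c read 38.2 and 42.8 RPKM in control cells, 30.8 and 34.5 with IL-21, and 24.7 and 26.2 with iSTAT3, with no overlap. Cdkn2d read 79.5 and 111, then 147 and 222, then 108 and 70.2 RPKM, and IL-21 against control gave 1.12 (SE 0.37, edgeR, adjusted p = 0.332). Cdkn1b was at 5.97 and 5.18 RPKM in control cells, 2.09 and 2.09 with IL-21, and 6.81 and 8.68 with iSTAT3, so its groups did not overlap either. Under the looser count filter its differences were -1.18 for IL-21 against control (SE 0.48, adjusted p = 0.945) and 2.00 for iSTAT3 against IL-21 (SE 0.49, adjusted p = 0.208). Gadd45a read 1.00 and 0.498 RPKM in control cells, 0 and 0.757 with IL-21, and 6.99 and 5.95 with iSTAT3, its highest libraries of the series. That difference to IL-21 alone was 4.26 under the looser filter (SE 1.80, adjusted p = 0.396).

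**Figure D3:**
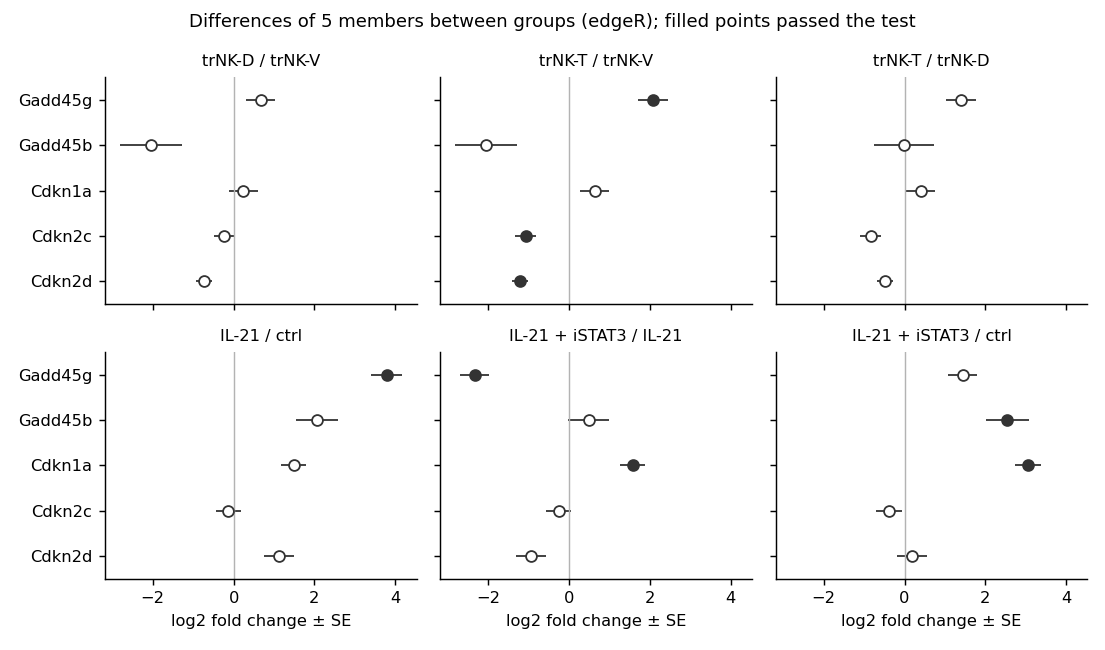
Log2 fold changes of 5 members in the 3 subset contrasts and the 3 inhibitor culture contrasts, from edgeR, with bars of 1 SE. Filled points passed the test (adjusted p under 0.05 and over 2-fold). Gadd45g runs from 3.78 for IL-21 against control to -2.34 on adding iSTAT3, while Cdkn1a is positive on adding iSTAT3 (1.57).

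Other genes of the pathway were read in the same culture. Cdkn2b, the INK4 inhibitor p15 that neighbours Cdkn2a, was at 0.615 and 1.50 RPKM in control cells, 5.37 and 10.6 with IL-21, and 31.1 and 18.4 with iSTAT3. It met the RPKM filter only through the iSTAT3 group, where it is high, so these values are given with no test. Mdm2, the ubiquitin ligase that p53 induces, read 23.7 and 24.1, 31.2 and 34.6, and 78.0 and 67.5 RPKM, and rose against control by 1.89 (SE 0.29, edgeR, adjusted p = 0.014). It was 1 of 2 among 7 tested p53 pathway genes to pass against control, beside 4.74% of all genes, and the other, Sesn1, went the opposite way (-2.25) and met the RPKM filter only through the control and IL-21 groups, where it was high. Among the cyclins, 1 of 3 tested D cyclins and kinases and 1 of 3 tested E, A and B cyclins and kinases passed as lower on adding the inhibitor, where 2.96% of all genes passed. Ccnd2 went from 29.3 and 46.3 RPKM with IL-21 to 11.9 and 8.13. Ccna2, the cyclin A of S and G2 phase, went from 6.79 and 14.7 to 1.52 and 0.524. Neither gene met the RPKM filter through the iSTAT3 group, where they were low, so these calls were favoured by the filter and are given as values. The cell division list summed to 407 and 296 RPKM in control cells, 299 and 332 with IL-21, and 194 and 105 with iSTAT3. The 5 trNK markers also moved, from 1115 and 1004 RPKM in control cells to 331 and 408 with IL-21 and 266 and 243 with iSTAT3. Macrophage markers summed to at most 0.87 RPKM in any cultured library.

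In the time course, Gadd45g was highest at 6 h with IL-21. It read 54.2 and 49.9 RPKM at 0 h, and 46.8 and 65.9 in the 0 h libraries labelled IL-21. At 6 h it was 71.7 and 74.0 without IL-21 against 364 and 431 with it. At 24 h it was 40.5 and 21.4 against 109 and 94.0, and at 72 h 6.09 and 23.3 against 62.3 and 38.4. The IL-21 libraries lay above their controls at 6, 24 and 72 h, and the groups did not overlap. The 72 h libraries stood apart, with 10724 to 13996 genes detected against 13340 to 15679 in the 0 to 24 h libraries, and their replicates disagreed most of all groups in the series (chi-square per degree of freedom of 392.5 without IL-21 and 376.8 with it). The part of this in any difference from 24 to 72 h was not tested.

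IL-21 raised Gadd45g 5.32-fold at 6 h (log2 difference 2.41, SE 0.55, edgeR, adjusted p = 0.0471), where it was the only one of 4 tested members to pass, against 1.97% of 3503 genes. With IL-21 it also rose 6.32-fold from 0 to 6 h (2.66, SE 0.55, adjusted p = 0.0312), again alone among the 4 and against 2.68% of genes. Both calls were lost when any one of the 4 libraries compared was left out, with adjusted p of 0.196 to 0.341 for the first and 0.0927 to 0.185 for the second, while the differences stayed between 2.30 and 2.83. From 6 to 24 h with IL-21 the Gadd45g difference was -1.91 (SE 0.54, adjusted p = 0.315), and no member and 0.0285% of genes passed in edgeR. There edgeR gave 1 of the 4 members and 239 genes in all at an unadjusted p under 0.05. DESeq2 called 1 of the 4 and 38 genes in all, and limma 0 and 1. Later IL-21 differences of Gadd45g were 1.61 at 24 h (SE 0.53, adjusted p = 0.176) and 1.59 at 72 h (SE 0.53, adjusted p = 0.0849). Without the 72 h control replicate 2, the 72 h difference passed at 3.10 (adjusted p = 0.000457). At 0 h no member and 0% of genes passed in edgeR, which gave 0 members and 110 genes at an unadjusted p under 0.05, and DESeq2 and limma called no gene.

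Cdkn1a was also highest at 6 h with IL-21, at lower levels. It read 4.75 and 2.84 RPKM at 0 h, 3.80 and 3.49 at 6 h without IL-21 against 10.7 and 16.4 with it, and 2.05 and 1.36 at 24 h against 7.64 and 3.50. At 72 h it was nearly gone, at 0.433 and 0.264 without IL-21 and 0.469 and 0 with it. The groups did not overlap at 6 or 24 h. The IL-21 differences at 6 h (1.86, SE 1.08, edgeR, adjusted p = 0.581) and 24 h (1.60, SE 1.07, adjusted p = 0.576) did not pass. Cdkn1a met the RPKM filter only through the 6 h IL-21 group, where it was highest, so these differences are a description. It met the filter at neither 24 nor 72 h. Its fall from 24 to 72 h with IL-21 passed (adjusted p = 0.0285), from 996 and 381 reads to 61 and 0, and is likewise a description. Without 24 h IL-21 replicate 1 its adjusted p was 0.130, and without replicate 2 it was 0.0697. Without 72 h IL-21 replicate 1, which leaves that arm only the library at 0, the 72 h difference between the arms passed as well, and no fold is given for it.

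Cdkn2c differed between the arms at 24 h and was highest at 72 h. It held 20.3 to 24.8 RPKM in the 4 libraries at 0 h and 21.6 to 27.4 in the 4 at 6 h. At 24 h it parted, at 37.4 and 32.4 without IL-21 against 16.6 and 18.0 with it, and at 72 h both arms were high, at 42.6 and 48.4 against 60.2 and 44.0. At 24 h the IL-21 difference was -1.11 (SE 0.24, edgeR, adjusted p = 0.0402), 2.16-fold lower, the only one of the 4 members to pass, against 1.66% of genes. This call was lost in limma, under the looser count filter, with no filter and with a replicate block. Without any one of its 4 libraries the adjusted p lay between 0.183 and 0.381. From 24 to 72 h with IL-21 Cdkn2c rose 3.85-fold (1.95, SE 0.24, adjusted p = 0.000467), which held on leaving out each library. Cdkn1a and Cdkn2c were the 2 of 4 members that passed in that interval, against 14.8% of genes. Cdkn1a met the RPKM filter in neither of these groups, so its call is no support. Without IL-21 the rise was 0.74 (SE 0.24, adjusted p = 0.0532), and the difference between the arms, 1.20 (SE 0.34), had an adjusted p of 0.0715 with all libraries and of 0.0414 or 0.0219 without 72 h control replicate 1 or 2. In that interaction 4.34% of genes passed and 0 of the 4 members did. There edgeR gave 1 of the 4 and 675 genes in all at an unadjusted p under 0.05. DESeq2 called 1 of the 4 and 384 genes, and limma 0 and 173. Between the IL-21 effects at 72 and 6 h 4.25% of genes differed and 0 of the 4 members did. In this case edgeR gave 0 of the 4 and 647 genes in all at an unadjusted p under 0.05. DESeq2 called 0 of the 4 and 392 genes, and limma 0 and 201. Without 72 h control replicate 1 the Gadd45g difference was -1.45.

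Cdkn2d read 37.5 and 39.5 RPKM at 0 h (19.9 and 45.3 in the 0 h IL-21 libraries), and all 6 h libraries lay above these, at 76.4 and 68.9 without IL-21 and 117 and 147 with it. From 0 to 6 h with IL-21 the difference was 1.88 (SE 0.48, edgeR, adjusted p = 0.0608). DESeq2 and limma each called 2 of the 4 members in that contrast, where edgeR called 1, beside 245, 152 and 94 genes in all. At 72 h the replicates of Cdkn2d parted, 40.0 and 26.3 without IL-21 and 79.4 and 18.8 with it. Gadd45b stayed between 0.485 and 14.3 RPKM and Cdkn1b between 0.646 and 4.47. At 6 h Cdkn1b read 2.36 and 1.50 without IL-21 against 0.768 and 0.646 with it. Neither gene met the RPKM filter here, so they entered no main test, though the looser count filter admitted both. Gadd45a never passed 0.486 RPKM. No member passed without IL-21 between 0 and 6 h, 6 and 24 h or 24 and 72 h, where 0%, 0.0856% and 14.8% of genes did. Here edgeR gave 0, 1 and 1 of the 4 at an unadjusted p under 0.05, beside 106, 197 and 1113 genes. DESeq2 called 8, 13 and 695 genes and limma 0, 3 and 689, with no member among them. Without 72 h control replicate 2, the fall of Gadd45g from 24 to 72 h passed at -2.15 (adjusted p = 0.0033). No member passed in the IL-21 contrast at 72 h, where 8.08% of genes did. There edgeR gave 1 of 4 at an unadjusted p under 0.05, beside 881 genes. DESeq2 called 1 of 4, beside 475 genes, and limma 1, beside 348.

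**Figure D4:**
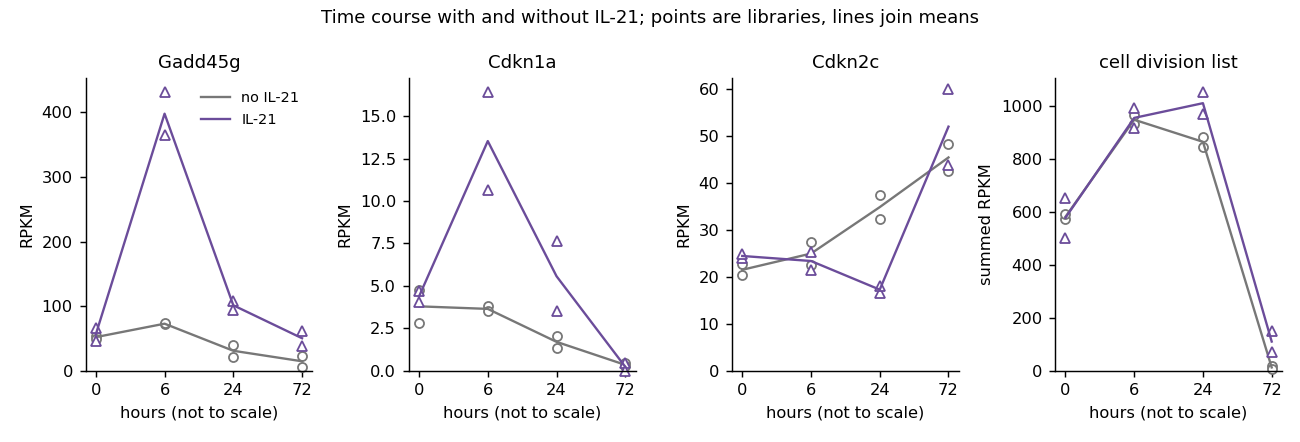
Gadd45g, Cdkn1a and Cdkn2c as RPKM, and the summed RPKM of the 18-gene cell division list, by hour of collection (0, 6, 24 and 72 h) in the untreated and the IL-21 arm. Points are libraries and lines join the means of 2 libraries; hours are evenly spaced and not to scale. Gadd45g is highest at 6 h with IL-21 (364 and 431), and at 72 h the division list is at 17.8 and 7.61 without IL-21 against 151 and 69.8 with it.

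Cell division transcripts were read beside these courses. The division list summed to 503 to 653 RPKM in the 4 libraries at 0 h, 918 to 993 at 6 h and 846 to 1053 at 24 h. At 72 h it was 17.8 and 7.61 without IL-21 and 151 and 69.8 with it. These sums are over all 18 genes with no filter. From 24 to 72 h without IL-21 all 12 tested genes of the list fell, as did 6 of 6 tested E, A and B cyclins and kinases, and with IL-21 7 of 12 and 4 of 6 fell, against 14.8% of all genes called in each arm. None of these division genes, cyclins and kinases met the RPKM filter through the 72 h libraries without IL-21, and with IL-21 only Birc5, Ube2c and Ccnb2 met it at 72 h, so the filter favoured the counts of falls in both arms. The 72 h libraries detected 10724 and 11665 genes without IL-21 and 13996 and 12000 with it, and the part of this in the falls was not tested. Cdkn3, a phosphatase that acts on Cdk1 and Cdk2, read 99.6 and 96.1 RPKM at 24 h without IL-21 and 0 and 0.0405 at 72 h, against 11.5 and 23.7 at 72 h with IL-21. Btg1 rose over the same interval in both arms, by 1.55 without IL-21 and 2.27 with it. Pcna, the clamp that Gadd45 proteins and p21 bind, fell in both arms (-2.39 without IL-21 and -1.62 with it). At 72 h 8 of 12 tested division genes and 4 of 6 cyclins and kinases passed as higher with IL-21 than without, where 8.08% of all genes passed. Birc5, Ube2c and Ccnb2 met the RPKM filter at 72 h with IL-21 only, and the others in neither 72 h group. These counts are therefore a description.

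Both cultures had IL-21 at the same dose and a collection after 3 days, but they differed in experiment and in library kit, which cannot be told apart from any difference between the cells. In the inhibitor culture Cdkn1a stood at 27.4 to 227 RPKM, and in the 72 h libraries of the time course at no more than 0.469. Gadd45g with IL-21 stood at 578 and 780 RPKM in the former and 62.3 and 38.4 in the latter. Cdkn2c stood at 24.7 to 42.8 against 42.6 to 60.2 RPKM, and Cdkn2d at 70.2 to 222 against 18.8 to 79.4. These values stand side by side only, since the difference was not tested.

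Genes that varied with the members over the 34 libraries were found by Pearson's r of log2(RPKM + 1), centred within each experiment, over the genes that passed the RPKM filter in all 4 experiments. For Gadd45g the closest were Manf (r = 0.873), Ssr1 (0.866) and Gzmb (0.86), where Manf and Ssr1 encode proteins of the endoplasmic reticulum and Gzmb the cytotoxic protease granzyme B. For Cdkn1a they were the chaperone genes Ptges3 (0.839), Hspa8 (0.834) and Hsp90ab1 (0.822). For Cdkn2c they were the NK receptor gene Klra8 (0.846), Gm5547 (0.837) and Ifi206 (0.831), and for Cdkn2d Cytip (0.866), Tspan13 (0.824) and Cep85 (0.819). The weaker likenesses were those of Cdkn1b to Rgs2 (0.762), 5430427O19Rik (0.744) and Paip2 (0.735), of Gadd45a to Rgs1 (0.693), Atg12 (0.675) and Ccnl1 (0.672), and of Gadd45b to Gbp8 (0.648), Txk (0.589) and Lilr4b (0.586). Cdkn2a, mostly at 0, reached only 0.477 with Gpr18, 0.476 with Gm33424 and 0.432 with Uqcrq. Between members, r was 0.599 for Gadd45g with Cdkn1a and -0.694 for Cdkn1a with Cdkn2c. These are descriptions over libraries that share batches and treatments within an experiment, with no test.

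The single-cell matrix gave the members' levels cell type by cell type. It held 15175 cells, deposited as 2 tables that carried the same cell names and no gene in common, and nothing in the files used here tied a cell to the virgin or the gd8.5 mice. It therefore counted as 1 sample, and no test was run. After the filters 8907 cells remained, grouped into 18 clusters, of which 11 were named from markers and 1891 cells stayed in unnamed clusters. The sort on CD45, NK1.1 and NKp46 would leave out the macrophage-like (1303 cells), B-like (300), T-like (275), stromal-like (212) and erythroid-like (89) clusters, so their presence goes against the gate and they do not sample those uterine populations. Levels are CPM, the UMIs of a gene summed over the cells of a cluster and scaled to all UMIs of those cells, with exact 95% Poisson intervals that cover counting error only.

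Among the clusters with trNK markers, Gadd45g was highest in a cluster led by Mt2, Tdrd9, Clic3 and Tff1, with Ctsg and Scin among its 10 leading genes (767 cells, the Scin cluster), with 568 CPM (545 to 592) and a UMI in 84.1% of cells. Of the 5 trNK markers, Eomes and Itga1 met the naming threshold there while Ncr1, Klrb1c and Tbx21 did not, and the cluster stays unnamed. It was split off again with the members among the variable genes, at 567 CPM, but not at resolution 0.4, without the upper limit on genes or with limits on UMIs per cell. The trNK-like cluster led by Tnfsf4 and the granzymes Gzmc, Gzmf, Gzmd and Gzme (1101 cells, the granzyme cluster) had 354 CPM (338 to 371), and the dividing trNK-like cluster (514 cells) 225 (206 to 245). The virginal trNK-like cluster (1208 cells), marked by Tcf7, Cd27, Tox and Ltb, had 116 CPM (105 to 129) and a UMI in 19.4% of cells. B-like cells, set beside these as a reference for free RNA without a test that they lack the gene, had 59.7 CPM (42.0 to 82.3) and a UMI in 9.67% of cells, at a median of 1825.5 UMIs per cell against 2361 in virginal and 5608 in the Scin cluster. With every cell thinned to 1000 UMIs, the share with a Gadd45g UMI was 40.1% in the Scin cluster, 26.4% in the granzyme cluster, 9.39% in virginal cells and 6.29% in B-like cells, in the same order as the CPM. Stromal-like cells (635 CPM, 571 to 704) and macrophage-like cells (230 CPM) also carried it.

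Among the trNK-like clusters and the Scin cluster, Cdkn1b was highest in virginal cells and lowest in the Scin cluster, the reverse of Gadd45g. It was at 250 CPM (234 to 268) in virginal trNK-like cells, 152 in the other trNK-like cluster of 904 cells, 96.4 in the granzyme cluster, 77.2 in dividing cells and 47.1 (40.7 to 54.2) in the Scin cluster. The order was not reversed throughout, since both genes were higher in the granzyme than in the dividing cluster. A small trNK-like cluster of 79 cells held 273 CPM of Gadd45g and 202 of Cdkn1b. T-like cells had the most Cdkn1b of any cluster, 455 CPM (402 to 513), with 285 in B-like and 242 in cNK-like cells. After thinning, the levels were 271, 174, 84.6, 78.8 and 52.4 CPM in the same order. Tob1, at 205, 55.0, 47.1, 39.2 and 8.49 CPM, and Btg1, at 918, 439, 205, 193 and 100 CPM, ran in that same order.

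Cdkn2d was highest in cNK-like cells, at 100 CPM (86.5 to 115), with 63.4 in virginal, 51.1 in dividing, 21.9 in granzyme and 20.1 in Scin cells. Cdkn2c was highest in the dividing trNK-like cluster, at 67.8 CPM (57.6 to 79.2), against 48.8 in virginal, 44.6 in the other trNK-like cluster, 30.1 in granzyme and 26.0 in Scin cells. B-like cells had 25.8 CPM. Cdkn1a was highest in other cells, at 422 CPM in macrophage-like cells and 769 in an unnamed cluster led by Ace, Ly6i and Chil3. It was at 128 CPM (117 to 139) in the unnamed Scin cluster, and in the trNK-like clusters at 88.2 in dividing, 47.5 in granzyme, 34.8 in virginal and 18.2 in the other trNK-like cluster, the last being at the B-like level of 17.7.

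Gadd45b was at 184 CPM in macrophage-like cells and 75.9 in virginal trNK-like cells, against 18.5 to 28.5 in the other large trNK-like clusters. It was at 13.1 in the unnamed Scin cluster and at 126 in a small trNK-like cluster of 79 cells led by interferon-induced genes. Gadd45a was highest in erythroid-like cells at 134 CPM and at 19.5 in virginal cells. Cdkn2a gave 59 UMIs in 52 of 8907 cells (0.584%), or 2.10 CPM. Set beside the bulk values, trNK-T libraries and the Scin and granzyme clusters both held more Gadd45g and less Cdkn2c, Cdkn2d, Cdkn1b and Gadd45b than trNK-V libraries and virginal cells. Of these bulk differences, that of Cdkn1b was not tested with the RPKM filter, which the gene did not meet. That of Gadd45b did not pass in edgeR with this filter, met only through trNK-V, and is a description.

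**Figure D5:**
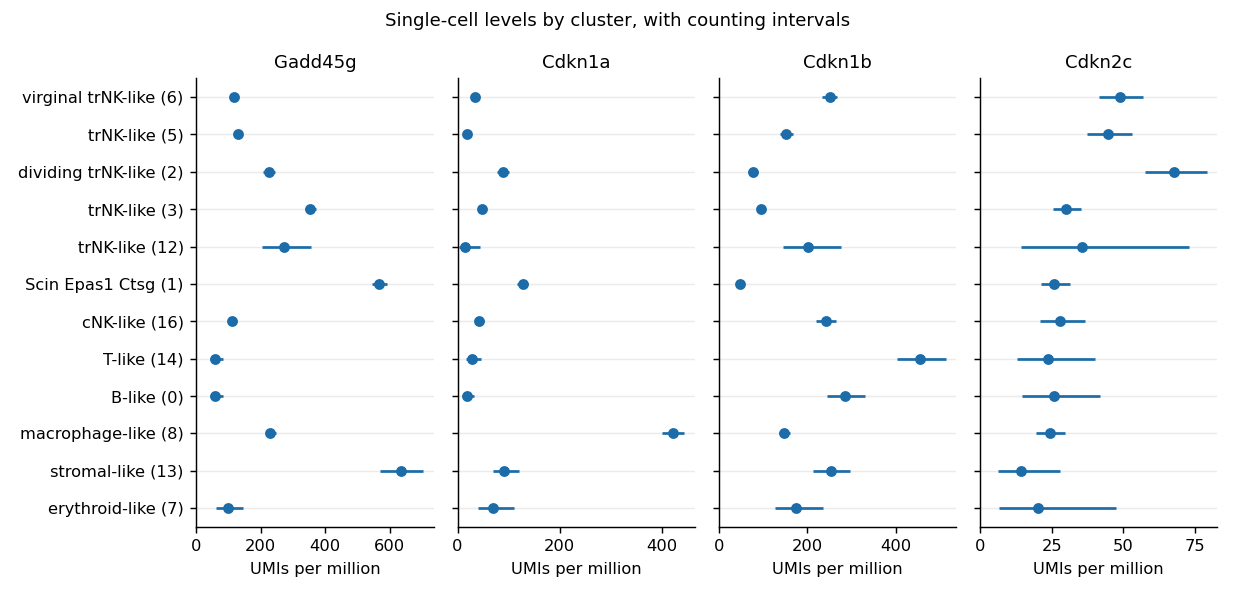
Gadd45g, Cdkn1a, Cdkn1b and Cdkn2c in 12 clusters of the single-cell matrix, as CPM with exact 95% Poisson intervals. Points are sums over the cells of a cluster, and all cells count as 1 sample. Gadd45g is at 568 in the Scin cluster and 116 in virginal cells, and Cdkn1b at 47.1 and 250 in the same 2 clusters.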

How the data were processed

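RNA from sorted or cultured mouse trNK cells was sequenced in 34 bulk libraries. The deposited bulk tables hold raw counts per gene, made by the authors with HISAT2 2.1.0 and featureCounts on mm10 per the labels, while the study's methods name RSEM. The first 3 experiments used SMART-Seq HT and NEBNext kits, the time course a Vazyme full-length kit. RPKM was computed here from the counts and the exonic length of each gene. Genes above 10 RPKM in both libraries of any group were tested per experiment over all its libraries with edgeR 4.0.16 (quasi-likelihood test, TMM, R 4.3.3), and p-values were adjusted by Benjamini-Hochberg over all genes of a contrast. A gene passed with an adjusted p under 0.05 and more than a 2-fold change (interactions by the p alone). The main fit was also run on simulated counts with a fixed dispersion, and its outcome is not given here. Alternatives were DESeq2 1.42.0, limma 3.58.1, other low-count filters, a fit of the compared groups only, a replicate block and leaving out each library, where a lone library is assumed to vary like the other groups.

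The deposited single-cell tables hold UMI counts per gene and cell, and their joined matrix was filtered at 200 to 2500 genes and under 10% mitochondrial UMIs, which kept 58.7% of cells. The upper limit on genes was met or passed by 4171 cells, so the levels leave out the cells with most genes detected. The study's methods state limits of 200 to 2500 UMIs, which would leave 4338 cells. Cells were clustered with scanpy 1.11.5 (2000 variable genes without the members and the listed cell cycle regulators, 20 components, Leiden resolution 0.8). Clusters were named by at least 3 markers, 3-fold over the rest, thresholds set after the clusters were seen. The trNK markers were instead counted at 2-fold over the pooled B-, macrophage- and stromal-like clusters only, and some unnamed clusters also met all 5. Scrublet marked 1 cell, so doublet calling did not work here and no cell was removed.

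Named genes were all members, in each list at most the 4 genes that passed with the largest change, and the 3 genes most like each member. Members and lists were chosen with earlier results of these data known. Promoter sequences came from RefSeq on GRCm38.p6, where 8 of 8 members matched. The 6 ATAC libraries were not analysed here. Intervals cover counting error only.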

Additional observations from a re-analysis of the deposited data

How the results depend on the processing

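All 142 values of the 13 calls of members under the alternatives kept their sign and 89 kept the call, and none of the 1076 bulk values reversed a call. No alternative ended 3 calls: Cdkn2d between trNK-T and trNK-V, Cdkn1a between iSTAT3 and control, and Cdkn2c from 24 to 72 h with IL-21. Leaving out a library ended the other 10, and the count of members passing then ran from 0 to 1 for gd6.5 against virgin, 0 to 2 for gd8.5 against virgin, 1 to 3 for trNK-T against trNK-V, 0 to 1 for IL-21 against control, 0 to 0 for iSTAT3 against IL-21 and 1 to 1 for iSTAT3 against control. In the time course it ran from 0 to 0 for IL-21 at 6 h and at 24 h and for 6 against 0 h with IL-21, from 0 to 1 for IL-21 at 72 h, for 72 against 24 h without IL-21 and for the interactions of 72 h with 24 h and with 6 h, and from 1 to 2 for 72 against 24 h with IL-21. In the remaining contrasts it was 0 throughout. The count of members passing changed with the tool. DESeq2 gave 1 for gd6.5 against virgin, gd8.5 against gd6.5, trNK-T against trNK-D, IL-21 at 72 h, 24 against 6 h with IL-21 and the 72 to 24 h interaction (each 0 in edgeR), 2 for IL-21 at 24 h and for 6 against 0 h with IL-21 (each 1), 3 for IL-21 against control (1), 3 for iSTAT3 against control (2) and 4 for trNK-T against trNK-V (3). In the order named, DESeq2 called 462, 221, 326, 475, 38, 384, 145, 245, 162, 583 and 1079 genes in all. The counts of all genes in edgeR were 278, 0, 82, 283, 1, 152, 58, 94, 12, 197 and 991. limma gave 0 for IL-21 at 24 h (1), 1 for IL-21 at 72 h (0) and 2 for 6 against 0 h with IL-21 (1), and called 57, 348 and 152 genes in all. With edgeR's filterByExpr, which tests more genes, the count was 0 for IL-21 against control (1), iSTAT3 against IL-21 (2), IL-21 at 6 h and 24 h (1 each) and 6 against 0 h with IL-21 (1), and 1 for iSTAT3 against control and for 72 against 24 h with IL-21 (2 each). Without any filter it was 1 for gd6.5 against virgin, gd8.5 against virgin, gd8.5 against gd6.5, trNK-D against trNK-V, trNK-T against trNK-D, IL-21 at 72 h and 24 against 6 h with IL-21 (0 each), 2 for IL-21 against control and 6 against 0 h with IL-21 (1 each), and 0 for IL-21 at 24 h (1). A fit of the compared groups alone gave 1 for gd8.5 against gd6.5 (0), 1 for iSTAT3 against IL-21 (2), 2 for IL-21 at 6 h and 24 h (1 each), 2 for 24 against 6 h with IL-21 (0) and 1 for 72 against 24 h with IL-21 (2). For trNK-T against trNK-V, filterByExpr and no filter each ended the Cdkn2c call. With a replicate block the count was 1 for trNK-T against trNK-D (0), 0 for IL-21 against control (1), 0 for iSTAT3 against IL-21 (2), 1 for iSTAT3 against control (2) and 0 for IL-21 at 6 h and at 24 h (1 each). Genes called in all were counted for the 3 tools only, so member counts under the other settings stand without that share. Replicates shared only a number, with correlations of same-numbered deviations from -0.509 to 0.597, so the pairing was not used. The causes of these changes were not tested. In single cells, 275 of 392 levels stayed within their counting interval under other cell limits, resolutions or variable genes, and 117 did not. No Scin cluster was split off under the limits on UMIs per cell, without an upper limit or at resolution 0.4, no virginal cluster under the limits on UMIs or with the members among the variable genes, and no dividing cluster without an upper limit.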
